A study of Homo sapiens with 39 samples.

Results

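The comparison set 3 libraries of an HCT116 line that makes isoform 11 of hepatocyte nuclear factor 4 alpha (HNF4A) against 3 libraries of the parental cells, 6 of the 39 libraries in the series. They were taken by their labels, and all gene rows entered except the 12 rows of HNF4A itself. HCT116 is a human colorectal cancer line. The parental group, titled an empty control in the labels, was the HCT116 Flp-In T-REx host with no HNF4A construct. The isoform 11 line carries HNF4A11 fused to GFP at its C-terminus, integrated in that host and switched on by doxycycline. Both groups received doxycycline at 2.5 µg/ml for 48 h. Until then the host had been maintained in blasticidin at 5 µg/ml and zeocin at 100 µg/ml, and the line in blasticidin at 5 µg/ml and hygromycin B at 100 µg/ml, and these antibiotics were withdrawn at induction. The isoform is represented by 1 line and no group made GFP alone, so effects of the isoform, of GFP, of the earlier antibiotic and of deriving the line cannot be told apart. The labels do not say that the 3 libraries of a group came from separate cultures, and the p-values measure only the spread between these libraries.

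HNF4A is a nuclear receptor that binds DNA as a homodimer and is best known for switching on genes of lipid, bile acid and drug metabolism and of the absorptive surface in liver, gut and kidney. Its gene has a pair of promoters. The distal one (P2) gives isoforms with a different N-terminus, among them isoform 11, and this form is found in gut and pancreas and in many colorectal cancers. Isoforms also differ at the C-terminal F domain: by the standard nomenclature isoform 11 carries a short insertion there that isoform 10, its closest relative, lacks, and isoform 12 has a shortened C-terminus. Isoform 8 has the insertion but another N-terminal form.

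The stretch that separates isoform 11 from isoform 10 by the nomenclature is shown because the lines of these isoforms are compared directly below. In the GENCODE v29 transcripts (GRCh38) of HNF4A it is an insertion of 30 bases, or 10 codons, present in 4 of the 9 transcripts (as in HNF4A-201) and skipped in 2 others (as in HNF4A-204). The inserted bases are in capitals, with 15 bases of shared sequence on each side, 5′ to 3′:
HNF4A with the insertion: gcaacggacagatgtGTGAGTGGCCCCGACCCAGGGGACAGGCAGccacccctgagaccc
HNF4A without the insertion: gcaacggacagatgtccacccctgagaccc
The construct's own sequence was not used here.

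HNF4A mRNA was measured first as a check of the labels. The sum of its 12 rows was 31.9, 30.8 and 31.7 TPM (a level scaled for transcript length and library size) in the host libraries and 615.5, 616.1 and 610.0 TPM in isoform 11. The line thus stood at 613.8 TPM ± 3.34 (SD, n = 3) against 31.5 ± 0.59 (SD, n = 3), and ranked 11 of the 13 groups from high to low. Nearly all of it was in the row HNF4A11, with means of 612.4 TPM in the line and 2.50 TPM in the parental cells. In the parental cells the row HNF4A12 held most of the signal, at 27.8, 27.3 and 28.7 TPM, and it stood at 0.863, 1.00 and 0.780 TPM in the line. The rows differ by short stretches, so a shift of reads between rows and a fall of the cells' own HNF4A mRNA cannot be told apart.

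The 6 libraries were alike in complexity, with 28247 to 30549 rows above 0 and 14719 to 15219 at 1 TPM or more. The lowest correlation between libraries of a group was 0.996 over all rows on the log2(TPM + 1) scale. No pair shared more than 0.00745% of identical values, and all 6 were counted as separate. Read depth is unknown from TPM, and no counting interval was computed.

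Which genes differ when isoform 11 is made was tested with limma on log2(TPM + 1), in 1 fit of all 39 libraries over the 15002 rows with a mean of at least 1 TPM. A call needed an adjusted p (Benjamini-Hochberg) under 0.05 together with a log2 fold change of 1 or more in size, that is, a doubling or halving on this scale, which understates the change of low genes. By this rule 254 genes were called (1.69% of those tested), 156 higher (1.04%) and 98 lower (0.653%) in isoform 11. At adjusted p alone, with no minimum fold, 2177 were higher (14.5%) and 3596 lower (24%), so most differences were small. The shares given here are the background for the counts of each gene list below. Of the called genes, 44 of the 156 higher genes had a parental mean under 1 TPM, 71 lay between 1 and 10 TPM and 41 at 10 TPM or more. A log2 fold change of at least 2 was reached by 34 of the higher and 8 of the lower genes. In 252 of the 254 the 3 libraries of the line did not overlap with the parental libraries, where 19.4% of all genes tested lay wholly above and 31.4% wholly below. The rule for a call favours such separation, so this count adds no support to the calls. The median over all genes was -0.06 on the log2 scale, and -0.01 after median-of-ratios scaling. That scaling gave 171 higher and 79 lower genes (68.4% higher against 61.4%), while a pseudocount of 0.1 gave 210 higher and 227 lower (48.1% higher).

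**Figure D1:**
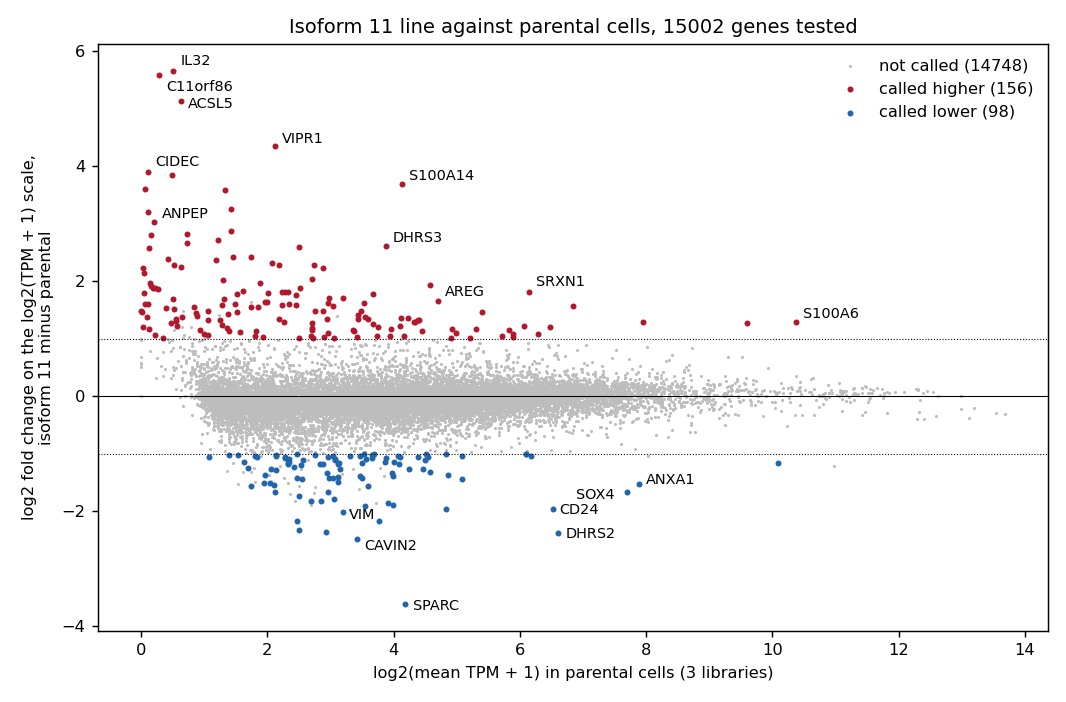
Log2 fold change of isoform 11 against the parental cells (vertical) by the parental level, log2(mean TPM + 1) (horizontal), for each of the 15002 genes tested; grey points were not called, red points are the 156 called higher and blue points the 98 called lower, and dotted lines mark a log2 fold change of 1 and -1. The rises above 4 (IL32, C11orf86, ACSL5 and VIPR1) start from low parental levels, and SPARC is the lowest point.

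Genes of fatty acid activation and fat storage gave some of the strongest rises. ACSL5, an acyl-CoA synthetase of enterocytes that activates fatty acids, lies on chromosome 10 from 112374018 to 112428380 (GRCh38, as for all gene positions here). It had 0.526, 0.640 and 0.485 TPM in parental cells and 51.5, 55.2 and 52.9 TPM in isoform 11. The groups were far apart, and the log2 fold change was 5.13 ± 0.11 (SE; adjusted p 5.83e-25 by limma). CIDEC (chromosome 3, 9866711 to 9880254), a lipid droplet protein that drives fusion of droplets, went from 0.0344, 0.125 and 0.0643 TPM to 14.4, 16.1 and 14.7 TPM. Its log2 fold change was 3.90 ± 0.129 (SE; adjusted p 2.77e-20 by limma). AGPAT2, which makes phosphatidic acid on the way to triglyceride, was present in both groups and rose from 58.1 TPM ± 1.26 to 123.7 TPM ± 3.63 (SD, n = 3), which is a log2 change of 1.08. CIDEB, a relative of CIDEC that lipidates lipoproteins, rose by 0.96 from 2.28 to 5.41 TPM in the mean and so missed the minimum fold. In the whole list of acyl-CoA and triglyceride synthesis and lipid droplets, 21 of 29 genes were tested and 3 were called higher and 0 lower. At adjusted p alone 6 were higher and 6 lower, and the list's median of 0.03 lay near that of all genes. The hormone-sensitive lipase gene LIPE (-0.42) and the droplet gene HILPDA (-0.29) were among those lower.

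Genes of fatty acid breakdown and lipid transport differed mostly by less than the minimum fold. Of the 22 genes of beta-oxidation and ketogenesis tested, 8 were higher and 0 lower at adjusted p alone, with a median of 0.15. After median-of-ratios scaling 14 were higher and 0 lower. ACAA2, the mitochondrial thiolase of the last step, was the 1 gene called: 55.2, 56.3 and 56.6 TPM in the parental cells against 119, 128 and 130 TPM, a log2 fold change of 1.15 ± 0.0629 (SE; adjusted p 4.62e-15 by limma). The electron transfer flavoprotein gene ETFB rose by 0.52, the carnitine carrier SLC25A20 by 0.44 and the regulator PPARA by 0.51. CPT1A, the entry step, was at 0.08 with a limma adjusted p of 0.371. PC, pyruvate carboxylase, which feeds oxaloacetate to gluconeogenesis and lipid synthesis, rose from 7.09, 7.03 and 7.64 TPM to 24.4, 23.5 and 22.5 TPM (log2 fold change 1.57 ± 0.0618, SE; adjusted p 2.6e-18 by limma). HKDC1, a hexokinase-like enzyme, went from 0.0927, 0.0815 and 0.0577 TPM to 9.99, 9.75 and 7.29 TPM (log2 fold change 3.20 ± 0.129, SE; adjusted p 4.65e-18 by limma). Among apolipoproteins APOE rose by 0.45 and APOC1 by 0.34, and APOM was lower by -0.43. APOA1, a textbook HNF4A target, was higher by 0.35 (limma adjusted p 0.0241), at low means of 0.274 and 0.626 TPM.

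Several genes of the absorptive surface rose. VIL1 (chromosome 2, 218419092 to 218453295), the actin-bundling protein villin of microvilli, had 0.482, 0.683 and 0.497 TPM in parental cells and 6.74, 6.80 and 5.66 TPM in isoform 11. ANPEP (chromosome 15, 89784889 to 89815401), the brush border aminopeptidase N, went from 0.181, 0.119 and 0.174 TPM to 8.01, 9.31 and 8.06 TPM. The 2 groups did not overlap for either gene, and the log2 fold changes were 2.25 ± 0.165 (limma adjusted p 3.78e-12) and 3.03 ± 0.103 (limma adjusted p 4.91e-20; both SE). SLC9A3R1, the scaffold that ties membrane proteins to ezrin, was already expressed and rose from 88.3 TPM ± 1.87 to 203.67 TPM ± 4.802 (SD, n = 3). Over the 15 of 26 brush border genes tested, 3 were called higher and 0 lower, and 9 were higher and 2 lower at adjusted p alone (median 0.33). Ezrin itself, EZR, was higher by 0.50 and the capping proteins EPS8 and EPS8L2 by 0.80 and 0.81, while FSCN1, a bundler of filopodia, was lower by -0.60 and the brush border peptidase DPP4 by -0.37. Late enterocyte genes of the same list stayed near 0: the mean TPM in the line was 0.00584 for ALPI, 0.00492 for SI and 0.0788 for CDH17.

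VIPR1 (chromosome 3, 42489299 to 42537573), the receptor of vasoactive intestinal peptide, was called higher. It had 3.46, 3.01 and 3.52 TPM in the parental cells and 96.8, 86.6 and 78.1 TPM in isoform 11, giving a log2 fold change of 4.34 ± 0.159 (SE; adjusted p 3.42e-19 by limma). The overlapping antisense gene VIPR1-AS1 was uneven, at 0.961, 3.59 and 0 TPM against 50.7, 24.5 and 10.7 TPM, and its reads may in part be those of VIPR1. LGALS4, a galectin of gut lipid rafts, was at 0.180, 0.0739 and 0.158 TPM and at 2.71, 3.64 and 3.17 TPM. It and VIL1 were the 2 called genes of the 21 listed HNF4A targets of liver and gut, of which 5 passed the filter. Because that filter used the mean over all lines, a gene could pass through its level in any of them. MTTP, at means of 1.27 and 1.28 TPM (limma adjusted p 0.986), and F10, at 9.25 and 7.33 TPM (limma adjusted p 0.0985), did not pass the test. APOH, TTR and FABP1 were listed at 0 in the 6 libraries.

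Junction and keratin genes differed by less. Of the 18 tight junction genes tested, 10 were higher and 1 lower at adjusted p alone (median 0.21), and none reached the minimum fold. The scaffold TJP3 (0.91), the polarity gene PARD6B (0.88) and the claudins CLDN7 (0.59) and CLDN4 (0.37) were among the higher. OCLN, occludin, was at -0.09 (limma adjusted p 0.553). The 12 listed markers of colon epithelium included 6 that were tested, and the 6 were higher, KRT19 most, from 423.8 to 753.4 TPM in the mean. KRT20 was at 0.952 and 0.608 TPM and the receptor GUCY2C at 0.02805 and 0.02411 TPM, so defining markers of differentiated colonocytes were low or near 0 in both groups.

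Several rises were of genes best known from liver, gut or steroid-making tissues. APOBEC1, the cytidine deaminase that edits apolipoprotein B mRNA in the intestine, was at 0, 0.121 and 0 TPM in parental cells and 10.7, 11.1 and 13.1 TPM in the line (log2 fold change 3.60). HPD, a tyrosine-degrading dioxygenase, went from 0.767, 0.612 and 0.605 TPM to 9.28, 10.4 and 8.71 TPM (log2 fold change 2.65 ± 0.11, SE; adjusted p 7.72e-18 by limma). The steroid enzyme CYP11A1, which cleaves the cholesterol side chain, went from 0.0852, 0.0495 and 0.124 TPM to 5.97, 4.79 and 5.62 TPM (log2 fold change 2.57). CYP17A1, the next enzyme of that route, had 0.113, 0.191 and 0.188 TPM against 3.61, 3.24 and 2.93 TPM. A further group of called genes was picked after the values were seen: BAAT, which conjugates bile acids (log2 fold change 2.38), the sarcosine oxidase PIPOX (2.28), the plasma protein vitronectin VTN (2.14), the lipid regulator CREB3L3 (1.85) and the acetyltransferase NAT2 (1.68). Of 10 listed hepatocyte markers 0 passed the filter, and their summed level was 1.328 to 1.502 TPM in parental cells and 0.843 to 1.36 TPM in the line.

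HNF4A is known to bind the motif CAAAGTCCA. In RefSeq promoters (GRCh38.p14, 250 bases before to 50 after a start), searched on both strands, CAAAGTCCA was present in 27 of the 10422 promoters of tested genes (0.259%), in 5 of 112 promoters of genes called higher (4.46%) and in 0 of 62 called lower. The 5 genes were APOBEC1, CD68, GPR35, MISP and PIPOX. The related CAAAGGTCA was in 28 (0.269%), in 2 of the higher (VTN and PPP1R14D, 1.79%) and in 1 of the lower (STRA6, 1.61%), and the consensus DR1 element (a direct repeat of AGGTCA with a spacer of 1 base) was in 3 promoters (0.0288%), none of a called gene. These motifs were chosen with the fold changes known, and a match is a description and not a binding site. The 4 matches that begin upstream of the start are shown because they lie in promoters of genes called higher. CAAAGTCCA, or its reverse complement TGGACTTTG, is in capitals, 5′ to 3′ on the gene's strand, with up to 30 bases on each side and none past the start unless the motif itself reaches it, as in PIPOX, where its last base is the start:
APOBEC1, chr12:7665909-7665966, minus strand, first base of the motif at -28: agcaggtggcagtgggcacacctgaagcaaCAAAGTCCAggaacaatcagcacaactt
GPR35, chr2:240605365-240605429, plus strand, at -35: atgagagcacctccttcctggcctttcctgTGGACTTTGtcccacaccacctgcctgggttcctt
MISP, chr19:750970-751038, plus strand, at -112: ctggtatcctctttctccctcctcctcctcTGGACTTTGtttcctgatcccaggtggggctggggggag
PIPOX, chr17:29043103-29043141, plus strand, at -8: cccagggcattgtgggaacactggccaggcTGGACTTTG
GPR35, a G protein-coupled receptor of the gut, had 1.49, 1.25 and 1.38 TPM in parental cells and 5.17, 5.17 and 4.47 TPM in the line. MISP, an actin regulator of microvilli and spindles, had 10.4, 10.1 and 11.1 TPM against 34.50, 34.35 and 34.65 TPM. PIPOX had 0.429, 0.575 and 0.288 TPM against 5.72, 5.87 and 6.25 TPM.

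On the log2(TPM + 1) scale the largest rise was that of IL32 (chromosome 16, 3065297 to 3082192), a cytokine-like gene usually induced by inflammatory signals. It had 0.446, 0.524 and 0.304 TPM in parental cells and 67.0, 73.9 and 71.7 TPM in isoform 11, giving a log2 fold change of 5.66 ± 0.154 (SE; adjusted p 2.19e-22 by limma). In the list of NF-kB response, chemokines and adhesion, 12 genes were tested and SOD2, at 0.17, was the other gene higher at adjusted p alone. TNFAIP2 was called lower (22.5, 22.5 and 21.7 TPM against 10.5, 10.3 and 9.62 TPM), and ICAM1 (-0.72), TNFAIP3 (-0.60) and NFKBIA (-0.31) were lower at adjusted p alone. C11orf86, an open reading frame of unsettled function, was at 0.300, 0.139 and 0.213 TPM against 62.2, 54.5 and 55.0 TPM (log2 fold change 5.58 ± 0.143, SE; adjusted p 5.42e-23 by limma).

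Among called genes S100A6, which codes for a calcium-binding protein, gave the largest rise in mean TPM. It (chromosome 1, 153534599 to 153536244) was at 1313.5, 1297.5 and 1347.6 TPM in parental cells and at 3118.4, 3355.7 and 3239.6 TPM in isoform 11, giving a log2 fold change of 1.29 ± 0.0534 (SE; adjusted p 7.23e-18 by limma). S100A14 (153614255 to 153616986) went from 15.2, 17.3 and 17.2 TPM to 218.4, 236.9 and 223.7 TPM, a log2 fold change of 3.69 ± 0.11 (SE; adjusted p 1.84e-21 by limma). S100A13, its neighbour, went from 108.7, 117.7 and 115.4 TPM to 313.2, 364.1 and 346.3 TPM (log2 fold change 1.57). S100A3 was the other called member, at 1.70. The S100A genes of chromosome 1 were taken as a group after these values were seen. Of 15 genes 11 were tested, 4 were called higher, 7 were higher and 0 lower at adjusted p alone, and the median was 0.68. Some members inside the same stretch did not pass: S100A2 was at 0.03 (limma adjusted p 0.718) and S100A4 at 0.13 (limma adjusted p 0.333).

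Growth factor genes changed in both directions. Of the EGF family, the ligands AREG and EREG, which are neighbours on chromosome 4, were called higher. AREG had 26.1, 26.0 and 22.6 TPM against 81.1, 85.99 and 74.35 TPM (log2 fold change 1.65 ± 0.0983, SE; adjusted p 3.53e-14 by limma), and EREG had 6.76, 7.08 and 6.51 TPM against 24.0, 24.9 and 20.2 TPM (1.62 ± 0.0996, SE; adjusted p 7.18e-14 by limma). The receptor ERBB3 rose by 0.67, whereas the ligand TGFA fell by 0.49 on the log2 scale and EGFR was at 0.07 (limma adjusted p 0.677). Of the FGF family, 8 genes were tested, 0 were higher and 6 lower at adjusted p alone, with a median of -0.53. FGFBP1, a secreted carrier that releases FGF from matrix, was the called member, at 31.5, 36.86 and 29.96 TPM against 12.5, 11.8 and 9.85 TPM (log2 fold change -1.45 ± 0.219, SE; adjusted p 3.74e-06 by limma). The ligands FGF19 (-0.96) and FGF2 (-0.78) and the receptors FGFR1 (-0.57), FGFR2 (-0.48) and FGFR3 (-0.47) were lower, and FGFR4 was at -0.01 (limma adjusted p 0.801). Among guidance factors SEMA3B rose from 4.57, 4.65 and 4.85 TPM to 34.99, 32.54 and 32.82 TPM and SEMA3C from a mean of 6.40 to 19.7 TPM, while SEMA3F was lower by -0.94.

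Drug and retinoid metabolism was mixed. CYP1A1, an oxidase of the aryl hydrocarbon response, rose from 2.34, 2.69 and 2.01 TPM to 17.5, 18.2 and 15.2 TPM (log2 fold change 2.42 ± 0.151, SE; adjusted p 9.47e-14 by limma), and its relative CYP1B1 was lower by -0.92. The efflux pump ABCG2 rose from 2.10, 2.19 and 1.85 TPM to 10.1, 9.884 and 9.403 TPM. The sulfotransferase SULT2B1 (log2 fold change 2.03) and the glutathione transferase MGST2 (1.32) were called higher, and GSTA1 (-0.72), GSTM2 (-0.66) and GSTA4 (-0.57) were lower at adjusted p alone. Of 18 transporters tested, 10 were higher and 2 lower at adjusted p alone (median 0.34), among the higher the fatty acid carrier SLC27A4 (0.93) and the glucose carrier SLC2A1 (0.53). DHRS3, which turns retinal back into retinol, rose from 11.5, 13.6 and 15.9 TPM to 86.5, 88.4 and 89.3 TPM (log2 fold change 2.61 ± 0.147, SE; adjusted p 8.53e-15 by limma). CYP26A1, which degrades retinoic acid and is itself induced by it, fell from 2.068, 1.603 and 2.658 TPM to 0.349, 0.364 and 0.439 TPM (log2 fold change -1.15). STRA6, a membrane receptor for retinol uptake, at 3.31, 3.86 and 3.05 TPM against 0.856, 0.818 and 0.749 TPM, was called lower too. In a retinoid list drawn up after these values were seen, 15 of 26 genes were tested, with 1 called higher and 3 lower and a median of 0.03.

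SPARC (chromosome 5, 151661096 to 151687165), a secreted matrix protein typical of mesenchymal cells, gave the largest fall on this scale. It had 14.97, 16.25 and 20.40 TPM in parental cells and 0.454, 0.460 and 0.498 TPM in isoform 11, giving a log2 fold change of -3.62 ± 0.338 (SE; adjusted p 6.23e-10 by limma). CAVIN2 (chromosome 2, 191834302 to 191847255), which shapes caveolae, fell from 9.66, 8.70 and 10.8 TPM to 0.867, 0.729 and 1.13 TPM (log2 fold change -2.49 ± 0.17, SE; adjusted p 7.9e-13 by limma). Of the 8 caveolae genes tested 5 were higher and 3 lower at adjusted p alone: CAV1 was higher by 0.65, CAV2 by 0.65 and CAVIN3 by 0.35, and besides CAVIN2 the lower genes were CAVIN4 (-0.47) and PACSIN3 (-0.20). VIM, the mesenchymal filament vimentin, was at 13.8, 14.6 and 13.9 TPM against 2.90, 3.05 and 3.58 TPM (log2 fold change -1.86 ± 0.218, SE; adjusted p 5.75e-08 by limma), and fibronectin FN1 was lower by -0.79 and THBS1 by -0.91. E-cadherin CDH1 was higher by 0.37 and EPCAM by 0.19, whereas the epithelial regulators GRHL2 and ESRP1 were lower by -0.25 and -0.19. Of the 13 genes of epithelial and mesenchymal state tested, 4 were higher and 4 lower at adjusted p alone. The shares of all genes were 14.5% and 24%. CTGF, the growth factor CCN2, was called higher at 1.03, but lost the call without isoform 11 replicate 1 (1.00, just under the minimum), isoform 11 replicate 3 (0.95) or parental replicate 2 (0.93).

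**Figure D2:**
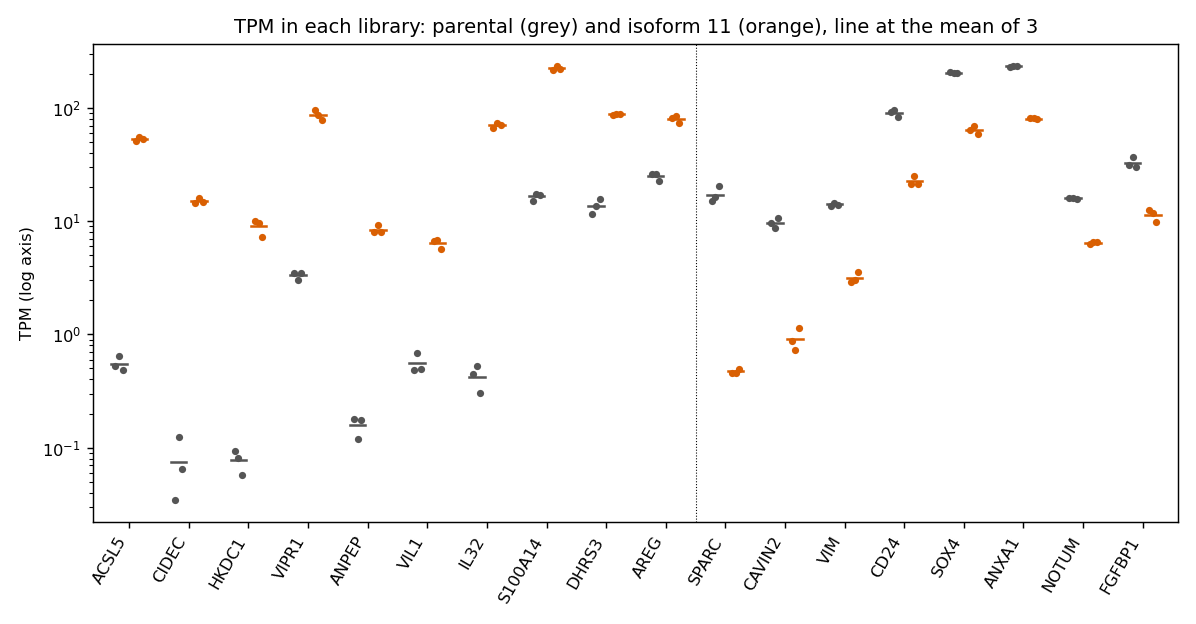
TPM on a log axis for 10 genes called higher (left of the dotted line) and 8 called lower (right), with each point 1 library, grey for the parental cells and orange for isoform 11, and the short line at the mean of 3. In each of the 18 genes the 3 points of one group lie apart from those of the other.

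Several abundant genes were among the falls. CD24, a surface glycoprotein of progenitor cells, went from 93.4, 95.5 and 82.9 TPM to 21.2, 25.1 and 21.5 TPM (log2 fold change -1.96 ± 0.0916, SE; adjusted p 1.56e-16 by limma). SOX4, a transcription factor of crypt and progenitor cells, went from 209.5, 206.0 and 203.3 TPM to 64.4, 69.1 and 58.9 TPM (-1.67 ± 0.0792, SE; adjusted p 2.05e-16 by limma). ANXA1, an annexin that dampens inflammation, was at 231.7, 237.3 and 237.2 TPM against 81.3, 81.7 and 80.0 TPM. The reductase DHRS2 fell from 83.9, 99.3 and 106.1 TPM to 16.3, 17.2 and 19.6 TPM, with the wide SE of 0.407 on a log2 fold change of -2.38. PPP1R1B, a phosphatase inhibitor, fell to under 1 TPM from 4.86, 5.88 and 9.15 TPM. The succinate receptor SUCNR1 and the focal adhesion gene TNS4 were each called lower at a log2 fold change of -1.83. MT2A, a metallothionein, was called lower at 1262.0, 927.8 and 1090.7 TPM against 661.8, 351.4 and 484.3 TPM, but the call was lost without parental replicate 1 (-1.06), isoform 11 replicate 2 (-0.94) or isoform 11 replicate 3 (-1.17, past the fold but not the adjusted p). The imprinted neighbours IGF2 (-1.16) and H19 (-1.56) and the binding protein IGFBP6 (-1.38) were called lower as well. They were picked after their values were seen, from a group of IGF genes of which 9 were tested, 0 were higher and 7 lower at adjusted p alone.

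Targets of Wnt signalling, the pathway that keeps intestinal crypt cells dividing and is active without ligand in HCT116, were lower as a group. Of the 14 tested, 0 were higher and 12 lower at adjusted p alone, against 14.5% and 24% of all genes, and the median was -0.44. NOTUM, a secreted enzyme that inactivates Wnt, was the called member, at 16.2, 15.9 and 15.9 TPM against 6.33, 6.61 and 6.51 TPM (log2 fold change -1.18 ± 0.0945, SE; adjusted p 2.33e-11 by limma). The feedback inhibitor AXIN2 was lower by -0.78, the receptors EPHB3 and EPHB2 by -0.86 and -0.61, DKK1 by -0.50 and SP5 by -0.59. MYC was at 0.03 (limma adjusted p 0.594) and TCF7 at -0.03 (limma adjusted p 0.694). With median-of-ratios scaling 11 were lower and 1 was higher. Stem cell genes of the list, LGR5 and ASCL2, were near 0 in both groups, with means of 0.0546 and 0.0404 TPM and of 0.00776 and 0.00541 TPM.

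Cell cycle genes were lower by small and even steps. Of the 22 DNA replication genes, each was tested and each was lower at adjusted p alone, with and without median-of-ratios scaling, between -0.63 and -0.19 with a median of -0.38. E2F1, the regulator of S phase entry, was at means of 29.8 and 18.9 TPM, MCM2 of the helicase at 154.7 and 106.0 TPM, and UHRF1 at 104.1 and 72.2 TPM. Their summed level was 3262 to 3459 TPM in parental cells and 2458 to 2725 TPM in the line. Of 20 mitosis genes 17 were lower and 0 higher (median -0.31), with TOP2A at -0.59 and CENPF at -0.52 the furthest down, and AURKA at 0.05 (limma adjusted p 0.544). After scaling 14 of the 20 were lower. CDKN1A, the p53-driven cell cycle inhibitor, was higher by 0.70, from 103.9 to 168.8 TPM. Of the 20 tested p53 targets 9 were lower and CDKN1A and PLK3 higher (median -0.17), against 24% and 14.5% of all genes. After scaling 5 of the 20 were lower and 3 higher. None of these genes reached the minimum fold, and in bulk libraries fewer dividing cells and less RNA per cell cannot be told apart.

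Cholesterol synthesis moved up as a group, again by small steps. Of 24 genes tested 17 were higher and 1 lower at adjusted p alone, with a median of 0.32. MVK (0.50), MVD (0.43) and FDFT1 (0.42), enzymes from mevalonate to squalene, were furthest up. SREBF2, the master regulator, was at 0.08 (limma adjusted p 0.23), while SREBF1 was the 1 lower gene at -0.15 and was not past the adjusted p after scaling, where 19 were higher and 0 lower. The summed level of the list was 2757 to 3026 TPM in parental cells and 3393 to 3692 TPM in isoform 11.

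**Figure D3:**
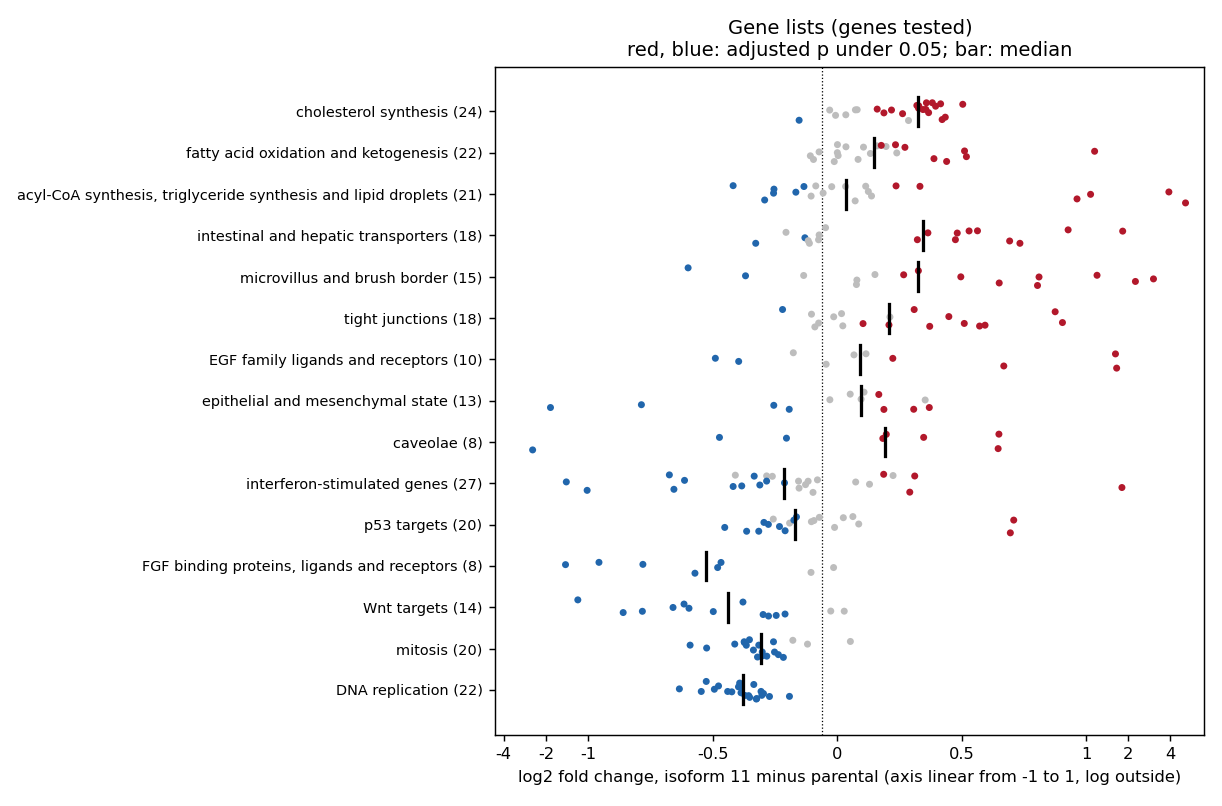
Log2 fold change of isoform 11 against the parental cells for each tested gene (point) of 15 gene lists, with the number tested in brackets; red and blue points passed an adjusted p under 0.05, grey points did not, the thick bar is the list's median and the dotted line the median of all genes. The points of DNA replication are blue throughout (median -0.38) and most of those of cholesterol synthesis are red (median 0.32).

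Of 27 interferon-stimulated genes tested 11 were lower and 4 higher at adjusted p alone (median -0.21), against 24% and 14.5% of all genes. After median-of-ratios scaling 10 were lower and 6 higher. IFITM1, a membrane protein that blocks virus entry, was at 5.33, 4.55 and 3.79 TPM against 1.13, 1.64 and 0.530 TPM (log2 fold change -1.43 ± 0.178, SE; adjusted p 1.6e-07 by limma), and IFIT1 was lower by -0.67 and UBE2L6 by -0.66. IFI6 was called lower at -1.02, but was under the minimum fold without isoform 11 replicate 1 (-0.95), parental replicate 2 (-0.99) or parental replicate 3 (-0.97), and after scaling (-0.96). OAS1 (chromosome 12, 112906777 to 112933222), which makes the second messenger of RNase L, rose from 3.65, 4.24 and 4.13 TPM to 15.3, 17.7 and 16.4 TPM (log2 fold change 1.803 ± 0.108, SE; adjusted p 3.89e-14 by limma), and its neighbour OAS3 was lower by -0.33.

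Of 26 listed transcription factors of gut and liver lineages 14 were tested. At adjusted p alone 2 were higher and 5 lower, against 14.5% and 24% of all genes. FOXA1 (-0.84), GATA6 (-0.82), KLF5 (-0.64) and CDX2 (-0.34) were lower, KLF4 was higher by 0.40 and the xenobiotic receptor NR1I3 by 0.96, from 0.884 to 2.65 TPM in the mean. The paralogue HNF4G was at -0.07 (limma adjusted p 0.594).

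Markers of other cell types were looked at in the same libraries. The fibroblast markers COL1A1 and ACTA2 passed the filter and did not pass the test, and DCN, LUM, PDGFRA and FAP were at or near 0. The summed level of the 10 fibroblast markers was 26.0 to 28.8 TPM in the parental cells and 26.2 to 27.0 TPM in the line. Of the blood and immune markers CD68 was called higher, at 4.01, 4.44 and 3.10 TPM against 14.5, 15.92 and 16.97 TPM. PTPRC and CD14 had means of 0.065 and 0.329 TPM in parental cells and of 0.0407 and 0.227 TPM in the line, and CD3D and CD3E were listed at 0. Of the endothelial markers PECAM1 was higher by 0.66, with means of 0.313 and 0.247 TPM for VWF, of 0.0711 and 0.0323 TPM for CDH5 and of 0.113 and 0.184 TPM for KDR. The summed level of the 10 blood and immune markers was 7.52 to 10.3 TPM in parental cells and 19.2 to 21.7 TPM in the line. CD68, at a mean of 15.8 TPM, made up most of the level in the line. The other 2 tested markers of that list did not pass the adjusted p, and its median was -0.02. The summed level of the 6 endothelial markers was 2.96 to 3.46 TPM in parental cells and 4.32 to 5.71 TPM in the line. The part of these markers in the other results was not tested.

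For some called genes the counting may have split reads between close copies or overlapping genes, and these are uncertain. The short RNA genes made up 5 of the higher and 7 of the lower calls, in libraries made from poly(A) RNA per the labels. They were 509 of the rows tested (3.39%), and of all genes tested 1.04% were called higher and 0.653% lower. SNORA22C was at 6.97, 1.48 and 5.50 TPM in parental cells and listed at 0 in isoform 11, and lost its call when any 1 of 5 libraries was left out. SNORA71E lost it without isoform 11 replicate 2 (-1.39), SNORD131 without isoform 11 replicate 3 (-1.43) and RNA5SP298 without isoform 11 replicate 3 (-1.17), parental replicate 1 (-1.71) or parental replicate 2 (-1.78). The summed level of rows named SNORA was 3164.6 to 3263.6 TPM in the parental cells and 2446.1 to 2855.9 TPM in the line, and its part in these calls was not tested. AQP7P3, a pseudogene of an aquaporin, was at 0.157, 0.687 and 0.355 TPM against 17.4, 17.9 and 21.5 TPM. RPL21, which has many processed copies, was at 821.4, 905.6 and 592.6 TPM against 1491.5, 1529.5 and 2733.3 TPM and lost its call without isoform 11 replicate 3 (0.99) or parental replicate 3 (1.09). HBE1 and OR51B5, both called lower, overlap in the annotation and were treated as 1 uncertain signal.

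Leaving out 1 of the 6 libraries at a time kept 201 of the 254 calls throughout, 138 of the higher and 63 of the lower. In the authors' deposited table, which has the column names of DESeq2, 238 of the 254 genes had the same direction with an adjusted p under 0.05, 10 had no adjusted p, 6 did not pass and 0 were opposite. With the same adjusted p and minimum fold, but no TPM filter, that table held 399 genes, 237 higher and 162 lower. It compares the same groups of cells, so it is not an independent check.

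The line was then compared directly with its nearest relatives, with no parental library on either side. Each isoform is 1 line here too, so effects of the isoform and of deriving the line cannot be told apart. Against isoform 10, which lacks the insertion, 30 genes were called (0.2% of those tested), 8 higher (0.0533%) and 22 lower (0.147%) in isoform 11, and 16 of them were also called against the parental cells. With no minimum fold, 4.52% of genes were higher and 8.9% lower. RERG, a growth-restraining small GTPase, was at 0.0134 TPM ± 0.0116 in isoform 11 and 3.88 ± 0.554 in isoform 10 (SD, n = 3), a log2 difference of -2.26 ± 0.098 (SE; adjusted p 3.36e-16 by limma). The RNA-binding protein IGF2BP3 (-1.65), VIM (-1.46), CAVIN2 (-1.78), SUCNR1 (-1.52) and CYP17A1 (-1.52) were lower too. CYP17A1 was at 3.26 TPM ± 0.339 in isoform 11 and 11.3 ± 1.79 in isoform 10. The higher genes included DHRS2 (1.78), keratin KRT7 (1.30), FGFBP1 (1.17) and CAV1 (1.10), and CAV1 fell just under the minimum fold without isoform 10 replicate 3 (0.99). KRT7 stood near its parental level, with means of 6.10 TPM in isoform 11 and 5.60 TPM in the parental cells (limma adjusted p 0.518). For the 3 genes with the largest log2 fold changes against the parental cells the lines did not differ past the test: IL32 was at 70.9 TPM ± 3.54 against 73.4 ± 1.93 (log2 difference -0.05 ± 0.154, SE; limma adjusted p 0.879), ACSL5 at 53.2 ± 1.82 against 58.1 ± 3.62 (-0.12 ± 0.11, SE; limma adjusted p 0.52) and C11orf86 at 57.2 ± 4.32 against 63.9 ± 1.15 (-0.16 ± 0.143, SE; limma adjusted p 0.526). VIPR1 and S100A14, also among the largest rises, were higher in isoform 11 than in isoform 10 by 0.52 and 0.78.

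Against isoform 8, which shares the insertion and differs at the N-terminus, 26 genes were called (0.173%), 4 higher (0.0267%) and 22 lower (0.147%), 16 of them also called against the parental cells. With no minimum fold, 3.46% of genes were higher and 8.51% lower. The higher genes were VIPR1, its antisense VIPR1-AS1, FAM25A and the short RNA SNORA103, whose call was lost when any 1 of 5 libraries was left out. VIPR1 was at 87.2 TPM ± 9.39 in isoform 11 and 21.2 ± 2.62 in isoform 8 (SD, n = 3), a log2 difference of 1.99 ± 0.159 (SE; adjusted p 5.33e-10 by limma). FAM25A was under the minimum fold without isoform 11 replicate 2 (0.99), and VIPR1-AS1 lost its call without isoform 11 replicate 1 (1.85) or isoform 8 replicate 1 (2.03). TMEM132D-AS1 (-3.77), the photoreceptor gene RPGRIP1 (-3.07), the intracellular growth factor FGF13 (-2.96), IGF2BP3 (-2.35), VIM (-2.23) and RERG (-2.09) were lower in isoform 11. RPGRIP1, at 3.44, 3.59 and 3.09 TPM in the parental cells, stood at 0.379 TPM ± 0.0903 in isoform 11 and 10.6 ± 0.642 in isoform 8.

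Isoform 12, with the shortened C-terminus, differed in more genes: 148 were called (0.987%), 70 higher (0.467%) and 78 lower (0.52%) in isoform 11, and 87 of them were also called against the parental cells. With no minimum fold, 10.3% of genes were higher and 19.7% lower. ANPEP was at 0.299 TPM ± 0.0697 in isoform 12 against 8.46 ± 0.733 in isoform 11 (SD, n = 3), a log2 difference of 2.86 ± 0.103 (SE; adjusted p 6.7e-19 by limma). IL32, at 8.89 TPM ± 0.397 in isoform 12, differed by 2.86 as well, VIPR1 by 2.45, HPD by 2.40, CYP11A1 by 2.38 and FAM25A by 2.32. CYP11A1 and HPD were low in isoform 12, at 0.237 TPM ± 0.066 and 0.985 ± 0.191. CD24 (-1.70) and SOX4 (-1.51) were lower in isoform 11 than in isoform 12, where they stood at 75.6 TPM ± 2.61 and 184.65 ± 10.475. The parental means were 90.6 and 206.3 TPM. RERG (-3.04), IGF2BP3 (-2.41) and VIM (-2.31) were again lower in isoform 11.

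**Figure D4:**
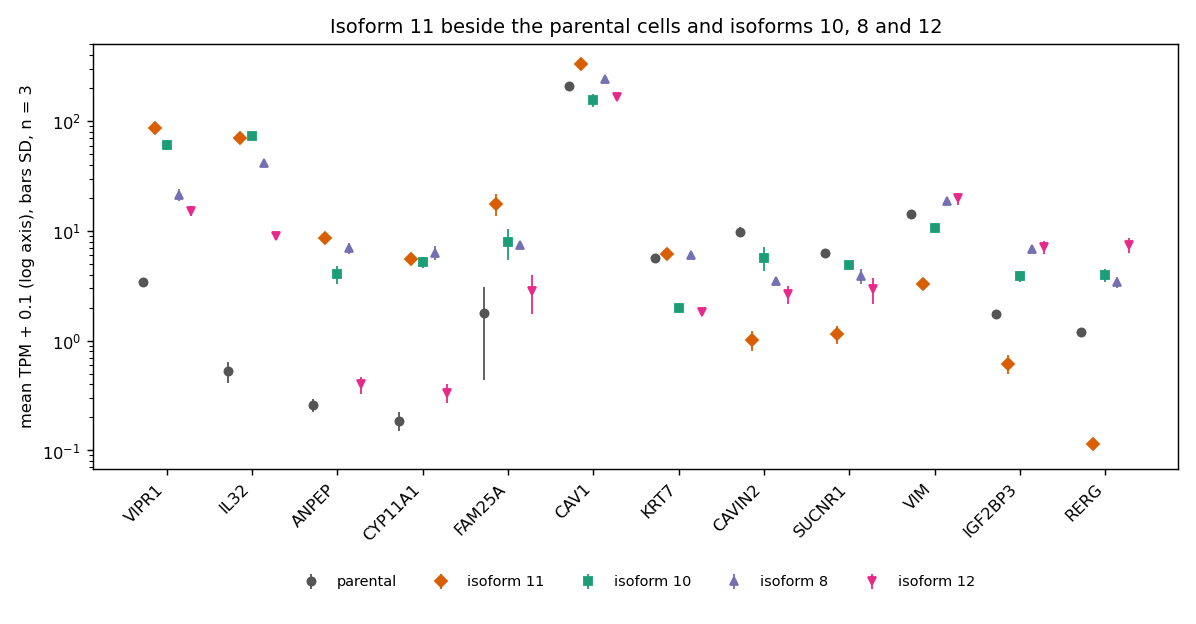
Mean TPM + 0.1 on a log axis for 12 genes in the parental cells and in isoforms 11, 10, 8 and 12, with bars for the SD of 3 libraries. Isoform 11 has the highest mean of the 5 groups for VIPR1, ANPEP, FAM25A, CAV1 and KRT7 and the lowest for CAVIN2, SUCNR1, VIM, IGF2BP3 and RERG. Against isoform 8, KRT7 (limma adjusted p 0.932) and ANPEP (limma adjusted p 0.085) did not differ past the test. KRT7 did not differ past the test from the parental cells either (limma adjusted p 0.518).

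Against the mean of the other 11 lines, 40 genes were called (0.267%), 22 higher (0.147%) and 18 lower (0.12%) in isoform 11. With no minimum fold, 8.51% of genes were higher and 12.9% lower. VIPR1 (2.53 ± 0.117, SE; adjusted p 4.18e-16 by limma) led the higher genes, followed by VIPR1-AS1 (2.32), IL32 (2.07), CYP11A1 (1.85), ACSL5 (1.84) and ANPEP (1.73). The mean of VIPR1 was the highest of the 12 lines, with isoform 10 next at 60.4 TPM ± 6.38, a log2 difference of 0.52 ± 0.159 (SE; adjusted p 0.0259 by limma). IL32 ranked 4, ACSL5 5, CYP11A1 3 and ANPEP 2 of the 12. CYP11A1 was at 5.46 TPM in isoform 11, below isoforms 7 (6.31 TPM) and 8 (6.26 TPM). ANPEP was at 8.460 TPM in isoform 11 and 8.461 TPM in isoform 7. The lowest mean of IL32 and of ACSL5 was in isoform 6. The lower genes were led by short RNAs, SNORD131 (-1.90), RNA5SP99 (-1.84) and SNORA70G (-1.67), of which SNORD131 lost its call without isoform 11 replicate 3 (-1.31), and included IGF2BP3 (-1.46), RERG (-1.34) and MKX (-1.30). Of the 156 genes called higher against the parental cells isoform 11 had the highest mean of the 12 lines in 10, and of the 98 called lower it had the lowest in 18.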

How the data were processed

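RNA of 39 libraries, 3 from each of 12 HNF4A isoform lines and the parental cells, was measured by RNA-seq of poly(A) RNA in directional libraries, per the labels' protocols. The deposited tables hold TPM values made by the authors, which scale estimated reads by transcript length and library. Per the submitters' processing notes the tools were Trimmomatic 0.36, FastQC 0.11.5, kallisto 0.44.0 and DESeq2 1.22.2 on GRCh38.p12, with no roles given. Neither the annotation nor the strand setting of the counting is given in the sources used here. The authors' deposited table of isoform 11 against parental also holds a log2 fold change with its SE, a p-value and adjusted p-value, and scores (a mean normalised count and a test statistic), with the column names of DESeq2 per the file headers. It was used only to compare calls.

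Each table held 45446 rows, of which the 12 HNF4A isoform rows were left out. Rows averaging 1 TPM or more across the 39 libraries were kept (15002), log2(TPM + 1) was taken, and limma 3.58.1 in R 4.3.3 was fitted once with 13 group means and a mean-variance trend (26 residual degrees of freedom). All groups entered so that the spread rests on more libraries. P-values were adjusted by Benjamini-Hochberg over all rows tested, and a call also needed a log2 fold change of 1 in size. In simulated data with 200 changed genes among 15002 in this comparison, 99% of those changed by 1.5 and 97% of those changed by 2 on the log2 scale were called, with 0 of the wrong sign and 0 unchanged genes called. Changes were planted only in genes with a mean log2(TPM + 1) above 1.5, with normal noise of each gene's fitted spread. Recovery of lower genes, of genes with uneven libraries and of changes nearer the minimum fold was therefore not measured. TPM keeps no depth, and the mean normalised counts of the authors' deposited table are 1 value a gene, with no total for a single library, so no counting error was computed.

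The comparison and the gene lists were chosen with earlier results of these data known. Genes named were the 15 largest non-overlapping rises and falls, up to 6 called genes of each list with those needed to describe the rest of it, the 6 largest differences in each direction of each direct contrast, and the 6 largest shifts in mean TPM. Some genes that this rule names are not reported here. Others were named after their values were seen, among them BAAT, PIPOX, VTN, CREB3L3, NAT2, GPR35, MISP, STRA6, S100A3, MKX, PDGFC and the genes of the groups said to be so chosen. Alternatives were a pseudocount of 0.1, no filter, a filter of 5 TPM, median-of-ratios scaling, a fit of only the groups compared, the replicate number as a block, no minimum fold, and leaving out each library in turn. Gene positions are those of GENCODE v29, matched by symbol for 13480 of the rows tested, and promoters those of RefSeq (GRCh38.p14), matched for 10422. Python 3.11.15 with pandas 2.3.3, numpy 2.4.6 and matplotlib 3.10.9 was used for the rest.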

Additional observations from a re-analysis of the deposited data

Results flagged for a closer look

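8 genes differed between isoform 11 and each of isoforms 10, 8 and 12 in the same direction, past an adjusted p under 0.05 by limma and a log2 difference of 1 in size. Their difference from the mean of the other 11 lines is given here. FAM25A was higher, by 1.48. Its mean was the highest of the 12 lines, at 17.5 TPM ± 3.98 (SD, n = 3), but isoform 7 was close, at 15.8 TPM. RERG was lower at -1.34, IGF2BP3 at -1.46, MKX at -1.30, VIM at -0.97 and PDGFC at -0.75. RERG and IGF2BP3 had the lowest mean of the 12 lines in isoform 11, whereas VIM ranked 9 and PDGFC 10 from high to low. For RERG isoform 2 was next, at 0.031 TPM against 0.0134 TPM, and for IGF2BP3 isoform 9, at 0.939 TPM against 0.520 TPM. Parental means were 1.10 TPM for RERG, 1.63 TPM for IGF2BP3, 6.85 TPM for MKX and 10.7 TPM for PDGFC. The short RNA rows SNORD131 (-1.90) and RNA5SP99 (-1.84) are uncertain: against isoform 10, leaving out isoform 11 replicate 1 took the call from both, at -1.95 and -1.49. FAM25A was under the minimum fold against isoform 8 without isoform 11 replicate 2, at 0.99.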

How the results depend on the processing

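Of the log2 fold changes of called genes that were recomputed, none turned its direction under the alternatives run. The balance of calls against the parental cells did turn, from 156 higher and 98 lower to 210 higher and 227 lower with a pseudocount of 0.1. Genes called numbered 437 with a pseudocount of 0.1, 162 with a filter of 5 TPM and 5773 with no minimum fold against the parental cells. Against isoform 10 these numbers were 82, 11 and 2013, against isoform 8 they were 60, 15 and 1796, and against isoform 12 they were 286, 91 and 4496. Against the other lines the pseudocount gave 96 and no minimum fold 3218. A filter of 5 TPM tests fewer genes, 11146, and dropping the minimum fold loosens the rule. The other causes were not tested. Leaving out 1 library at a time gave 240 to 263 calls against the parental cells, 30 to 41 against isoform 10, 18 to 32 against isoform 8, 135 to 163 against isoform 12 and 37 to 46 against the other lines. Of 65 named results against the parental cells, 3 to 6 lost their call when a library was left out, 3 with no filter and 2 with scaling. Of 46 named results of the direct comparisons, 10, 6 and 7 lost their call without isoform 11 replicate 1, 2 and 3. No filter took the call from 8 of the 46, a pseudocount of 0.1 from 3 and scaling from 0. A fit of only the groups compared took it from 5 of 34.

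The fit with the replicate block left out isoforms 4 and 5, and called 254, 32, 31, 149 and 33 genes in the same order. For isoforms 4 and 5 the labels number the replicates but give all 3 samples of a group the same column name. Their columns could therefore not be matched to replicate numbers. The labels do not say that a replicate number marks a shared day. Same-numbered libraries of isoform 11 and the parental cells had correlations of 0.048, 0.107 and 0.004 in their deviations from the group means. With isoform 10 they were 0.04, 0.046 and 0.048, with isoform 12 they were 0.104, 0.104 and 0.039, and with isoform 8 they were -0.099, -0.083 and -0.044. With 3 libraries a group, such weak correlations cannot decide whether the numbers pair the samples. The block took no call from a named gene. The depth of a library is unknown from TPM, and genes near 0 in a group have fold changes set partly by the pseudocount.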

Other observations

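Immediate early genes, which cells switch on within minutes of a stimulus, were grouped after their values were seen. Of 25 tested, 6 were called higher and 0 lower in isoform 11 against the parental cells, and 11 were higher and 4 lower at adjusted p alone (median 0.18). Of all genes tested 1.04% were called higher, and 14.5% were higher and 24% lower at adjusted p alone. The called genes were JUN, KLF6, ZFP36, CEBPD, PIM1 and ETS2. The kinase gene PIM1 moved most, from 12.5, 11.4 and 11.3 TPM to 44.96, 43.38 and 39.78 TPM (log2 fold change 1.78 ± 0.0859, SE; adjusted p 2.83e-16 by limma), and JUN went from 16.15, 19.49 and 17.54 TPM to 48.00, 45.40 and 47.87 TPM. EGR1 was at 0.18 (limma adjusted p 0.675) and IER2 at 0.03 (limma adjusted p 0.753), and DUSP6, a feedback phosphatase of ERK signalling, was lower by -0.93.

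PHGDH, the first enzyme of serine synthesis, was lower by -0.77 (74.7 to 43.4 TPM in the mean) and PSAT1, the next, by -0.28. Of the 17 genes of the ATF4 and serine list tested, 3 were higher and 6 lower at adjusted p alone, against the shares of all genes given above.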
